A study of Drosophila melanogaster with 8 samples.

Results

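Transcripts of 9 genes that encode extracellular proteases and protease inhibitors of the melanization and Toll-activating cascades were examined in larval hemocytes of Drosophila melanogaster. The genes were picked by name, 5 clip-domain serine proteases (Hayan, psh, Sp7, MP1 and grass) and 4 serpins (Spn27A, Spn28Dc, Spn77Ba and nec), and matched to FlyBase identifiers. Of these 9 genes, 7 had a row among the 11769 genes listed, and 3 of the 7 had enough counts to be tested. Hayan and MP1 had no row to read and were not analysed here. The larvae, labelled wild-type, carried the reporter hmlΔ>2xeGFP, which marks hemocytes through the Hemolectin (Hml) promoter. They were fed a standard sucrose-yeast medium (control diet, CD) or that medium with a 10x sucrose supplement (high-sugar diet, HSD), at 25 °C. At 96 h after egg laying 5 larvae were bled per collection, 20000 cells with GFP went into each library by flow sorting, and poly(A) RNA was sequenced. There were 4 libraries a diet, numbered 1, 3, 4 and 5 for CD and 1 to 4 for HSD. The labels do not say whether replicates came from separate cultures, so the p-values reflect only how far these libraries differ among themselves, possibly for technical reasons.

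In insects, wounds and microbes set off chains of clip-domain proteases that circulate as inactive precursors and cut each other in turn. One branch ends in the cleavage of prophenoloxidase, which starts melanin formation, and another in the cleavage of Spätzle, the ligand of the Toll receptor. Serpins are suicide inhibitors that trap these proteases and keep both branches local and brief. The fat body and hemocytes both secrete components into the hemolymph.

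Total counts ran from 20817891 to 24733521 per library. The 13 plasmatocyte markers, genes of the macrophage-like hemocytes, were all detected and summed to 77073 to 87867 CPM (counts relative to the TMM-scaled library size) on the control diet. CD replicate 1 stood apart from the other CD libraries: its pairs differed by a chi-square of 122 to 127 per degree of freedom, against 7.68 to 19.9997 among the other CD pairs and 16.2 to 65.1 among HSD pairs. The fold changes of the tested members are therefore also given without it, and other results where leaving it out moved them. These are bulk libraries, in which fewer cells of a type and less RNA per cell cannot be told apart.

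Among the serpins, the transcripts of Spn27A and Spn28Dc were well detected and both were higher on the high-sugar diet, by 1.249-fold and 1.284-fold. The diets overlapped for Spn28Dc, and its call was lost in several alternative fits given below. The call of Spn27A was lost when replicate numbers entered the fit as a block and in a test against a 1.5-fold change. Among the proteases, grass was present at a low level with no difference past the test, and Sp7 and psh were close to undetected on both diets. The other serpins, Spn77Ba and nec, were close to undetected as well. Of the 3 members tested, 2 passed as higher and none as lower, where 26.0% of all 7844 tested genes passed, 14.4% as higher and 11.6% as lower (edgeR quasi-likelihood test, adjusted p under 0.05, on counts with diet as the only term). With 3 genes tested the count says little about the class, and each gene is described on its own.

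The protease encoded by grass acts below the modular protease ModSP in the Toll-activating chain that follows recognition of bacteria and fungi. Its transcript stood at 8.52, 6.34, 6.59 and 6.94 CPM in CD replicates 1, 3, 4 and 5, and at 7.80, 7.39, 7.38 and 8.42 CPM in HSD replicates 1 to 4. The CD libraries without replicate 1 lay below every HSD library, and CD replicate 1 lay above them all, so the diets overlapped. The means were 7.10 ± 0.978 CPM on CD and 7.75 ± 0.487 CPM on HSD (SD, n = 4 each). The log2 fold change of HSD over CD was 0.13 ± 0.111 (SE, edgeR adjusted p = 0.433), and its 95% interval ran from 0.925-fold to 1.29-fold. Without CD replicate 1 the log2 fold change was 0.23 (edgeR adjusted p = 0.0917), and under scaling by library size alone it was −0.033, the opposite direction. The gene lies on chromosome 3R from 27157948 to 27159781 on the plus strand of dm6, and its exons overlap no other annotated gene.

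Sp7 encodes a protease that activates prophenoloxidase, the step that starts melanin formation. Its counts were 3, 1, 13 and 6 in CD replicates 1, 3, 4 and 5 and 3, 2, 3 and 2 in HSD replicates 1 to 4. CD replicate 4 alone held 13 of the 23 CD counts. Counts summed over each diet were divided by library totals without TMM scaling. On that scale 23 counts on CD gave 0.258 CPM (exact Poisson 95% interval 0.164 to 0.387). The 10 counts on HSD gave 0.111 CPM (0.0531 to 0.204), and these intervals cover counting error only. The HSD to CD ratio of 0.429, on the same unscaled totals, had an exact counting interval of 0.182 to 0.938. With TMM scaling the mean CPM lay closer together, at 0.250 ± 0.229 on CD and 0.117 ± 0.0229 on HSD (SD, n = 4 each). No counting interval of the ratio was computed on the TMM scale. Without CD replicate 4 the ratio was 0.749, with an interval of 0.280 to 2.01 that includes no difference. Sp7 lies on chromosome 3R from 7759786 to 7763947 on the plus strand.

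The psh gene encodes Persephone, a protease that microbial proteases can cut directly and that feeds the Toll ligand pathway. It had 1 count in each of CD replicates 1, 3 and 5, none in CD replicate 4, and 1 count in HSD replicate 2. The sums of 3 CD counts and 1 HSD count are at or below the 3 counts taken as the detection floor. On unscaled totals this floor was 0.0337 CPM on CD and 0.0332 CPM on HSD. A difference between the diets was not detectable at this depth. Hayan, a relative of psh that acts on both the melanization and the Toll branch, lies beside it on chromosome X, 714 bases away on the same strand, with psh from 18484487 to 18486921. The annotation places 36.2% of the exon length of Hayan opposite exons of a noncoding antisense gene. All exons of MP1, a protease of the melanization branch on chromosome 3R from 4307908 to 4309835, lie opposite exons of Vps24, an ESCRT-III gene. Vps24 itself stood at 2.29 ± 0.436 CPM on CD and 2.69 ± 0.669 CPM on HSD (edgeR adjusted p = 0.461).

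Spn27A encodes the serpin that restrains prophenoloxidase activation in the hemolymph and, in the embryo, the Toll-activating protease Easter. Its transcript stood at 625, 537, 516 and 548 CPM in CD replicates 1, 3, 4 and 5, and at 683, 672, 721 and 703 CPM in HSD replicates 1 to 4. All HSD libraries exceeded all CD libraries, with CD replicate 1 the nearest to them. The diets were separate in this direction in 15.1% of all tested genes, in the other direction in 12.9% and in either in 28.0%. The means were 556 ± 47.7 CPM on CD and 695 ± 21.5 CPM on HSD (SD, n = 4 each). This gave a log2 fold change of 0.32 ± 0.0628 (SE, edgeR adjusted p = 0.00225), a 1.249-fold rise with a 95% interval of 1.14 to 1.37. The exact two-sided permutation p on log2 CPM was 0.0286, which is the lowest possible with 4 libraries a side. Without CD replicate 1 the log2 fold change was 0.39 (edgeR adjusted p = 1.34e-05), and under scaling by library size alone it was 0.16 (edgeR adjusted p = 0.0295). Among all genes called, 44.2% had a smaller log2 change in size. The single exon block of Spn27A lies on chromosome 2L from 6671065 to 6673347 on the minus strand, inside the span of cup and CG34310 on the other strand, and shares no exon bases with either.

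Spn28Dc encodes a serpin that limits phenoloxidase activity after injury. Its transcript stood at 77.8, 74.6, 81.7 and 103 CPM in CD replicates 1, 3, 4 and 5, and at 106, 100, 125 and 101 CPM in HSD replicates 1 to 4. CD replicate 5 lay above HSD replicates 2 and 4, so the diets overlapped by that library, while the other CD libraries lay below all HSD libraries. The means were 84.2 ± 12.7 CPM on CD and 108 ± 11.8 CPM on HSD (SD, n = 4 each). The log2 fold change came to 0.36 ± 0.105 (SE, edgeR adjusted p = 0.0273), a 1.284-fold rise with a 95% interval of 1.09 to 1.51, and the exact two-sided permutation p was 0.0857. The call was lost without CD replicate 1, 3 or 4 (edgeR adjusted p = 0.0751, 0.0765 and 0.0698) and without HSD replicate 1 or 3 (0.0562 and 0.0635). It was also lost under scaling by library size alone (log2 fold change 0.20, edgeR adjusted p = 0.169, the highest of the fits that test for any difference, whose lowest was 0.00161), and the adjusted p was 1 in the test against a 1.5-fold change. Without CD replicate 5 the log2 fold change was 0.47 (edgeR adjusted p = 0.00161). Spn28Dc lies on chromosome 2L from 8004548 to 8007210 on the minus strand, with no exon overlap.

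Spn77Ba, a serpin that holds back melanization in the tracheae, had 0, 1, 3 and 2 counts in CD replicates 1, 3, 4 and 5 and none in any HSD library. On unscaled totals the 6 CD counts gave 0.0673 CPM (exact Poisson 95% interval 0.0247 to 0.147). The 0 counts on HSD lie under the floor of 3 counts, 0.0332 CPM, with an upper bound of 0.0409 CPM by the same exact interval. The product of nec, Necrotic, inhibits the Persephone branch of Toll activation. It had 2 counts in CD replicate 3 and 1 count each in HSD replicates 1 and 2, and none in the other 5 libraries. When the low-count filter was dropped so that all 7 members entered the fit, Sp7, psh, Spn77Ba and nec had edgeR adjusted p-values of 0.36, 0.648, 0.123 and 0.975. Spn77Ba lies on chromosome 3L from 20317190 to 20320116 and nec on 2R from 7156477 to 7158241.

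**Figure D1:**
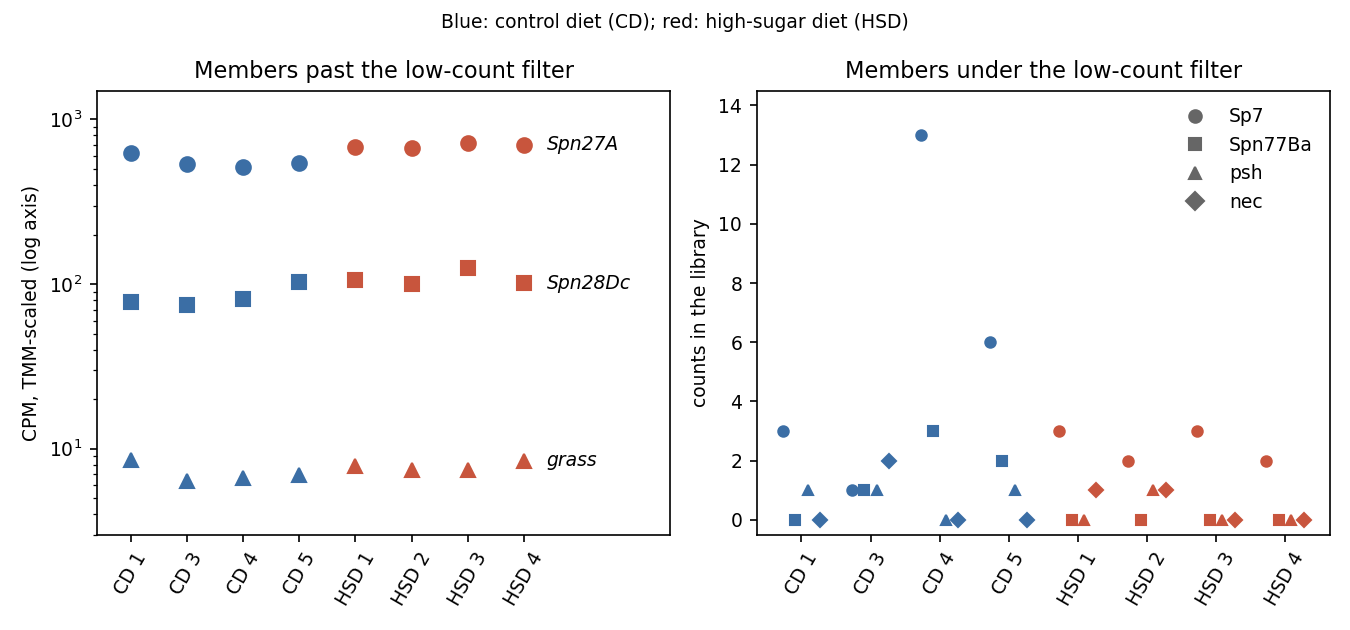
Abundance of the 3 members past the low-count filter in CPM on a log axis (left) and raw counts of the 4 members under it (right), for each of the 4 CD (blue) and 4 HSD (red) libraries. Spn27A lies at 672 to 721 CPM in every HSD library against 516 to 625 CPM in CD, and 13 of the Sp7 counts come from CD replicate 4.

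Scaled by exon length (RPKM, the CPM divided by the kilobases of exon), the members spanned the range from abundant to undetected. Spn27A reached 244 ± 20.9 RPKM on CD and 304 ± 9.43 RPKM on HSD (SD, n = 4 each), more than 96.4% and 96.9% of the tested genes with a known length. Spn28Dc reached 47.0 ± 7.08 RPKM on CD and 60.3 ± 6.57 RPKM on HSD, above 81.7% and 85.3% of genes. The level of grass was 5.10 ± 0.703 RPKM on CD and 5.57 ± 0.3504 RPKM on HSD, above 26.6% and 27.9% of genes. Within a CD library Spn27A was 5.27 ± 0.910 times as abundant per length as Spn28Dc and 48.0 ± 2.81 times as abundant as grass (SD, n = 4).

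Spn27A was the most abundant of the 20 serpin genes with a row. On the control diet its lowest library, at 226 RPKM, lay above the highest library of the next serpin, Spn88Eb, at 68.4 RPKM. Spn28Dc came next, followed by Spn88Ea and Spn42Dc, and no 2 neighbours in the order of these 5 genes overlapped within either diet. Spn55B and Spn42Da, the next in order, did not differ beyond their spread. Spn27A held 56.4% to 62.8% of all serpin counts in the CD libraries and 58.8% to 59.8% in the HSD libraries, so its share overlapped between the diets through CD replicate 1. Without that library the CD shares ran from 56.4% to 58.75%, next to but below the lowest HSD share of 58.77%. The 95% counting intervals of these neighbouring shares overlapped, at 58.1% to 59.4% in CD replicate 3 and 58.2% to 59.3% in HSD replicate 3. Their order is therefore within counting error. The share of Spn28Dc overlapped too, at 7.82% to 10.6% on CD and 8.51% to 10.2% on HSD. Among 22 protease genes of the Toll, dorsal and clip-type lists, grass had rank 8 per length, next to modSP, whose range it overlapped on CD but not on HSD. Sp7 and psh had ranks 18 and 22.

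**Figure D2:**
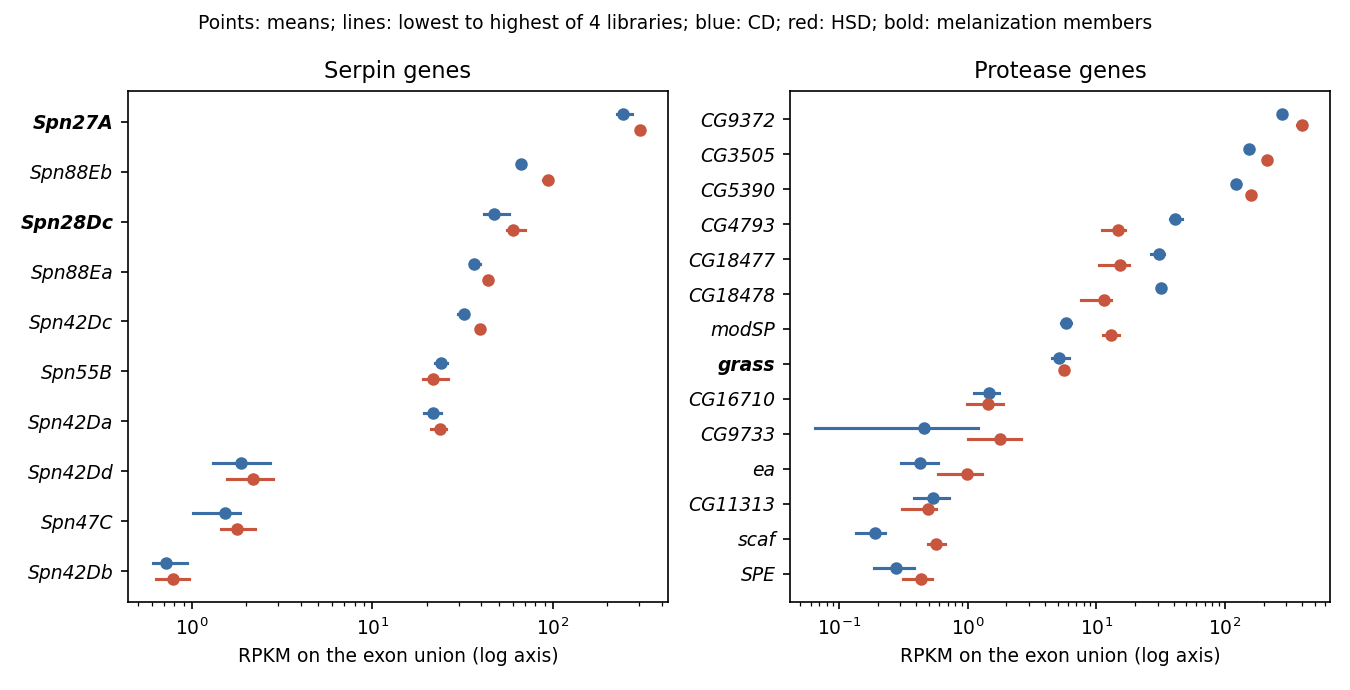
Level per exon length (RPKM) on a log axis for the tested serpin genes (left) and protease genes (right), with means as points and the lowest to highest of 4 libraries as lines, CD in blue and HSD in red. Spn27A stands clear of every other serpin on both diets, and grass lies at 5.10 RPKM on CD, near the middle of the order of proteases.

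Of 8 further serpins tested, 3 rose, none fell and 5 did not pass, where 14.4% of all tested genes rose. Their median log2 fold change was 0.22, beside −0.01 over all tested genes. Without HSD replicate 4, 1 of them fell as well. Spn88Eb rose 1.41-fold, its mean going from 95.7 ± 1.97 CPM on CD to 135 ± 5.38 CPM on HSD (edgeR adjusted p = 6.35e-06). Spn42Dc rose 1.23-fold (edgeR adjusted p = 0.00148) and Spn88Ea 1.19-fold (edgeR adjusted p = 0.00567), both calls lost under scaling by library size alone (0.111 and 0.217), and the Spn42D genes sit in one cluster, so reads shared between them are uncertain. Spn42Da, the fourth by p-value, had a log2 fold change of 0.11 (edgeR adjusted p = 0.294). Under scaling by library size alone, 1 of these serpins rose and 1 fell, and their median was 0.05, where the median of all tested genes was −0.17.

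Protease genes moved in both directions. ModSP, the protease above Grass in the Toll-activating chain, had its transcript at 12.1, 14.6, 13.5 and 13.0 CPM in CD replicates 1, 3, 4 and 5 and at 30.8, 29.1, 34.1 and 25.9 CPM in HSD replicates 1 to 4. No library overlapped, and the rise was 2.25-fold (log2 fold change 1.17 ± 0.0891 SE, edgeR adjusted p = 1.30e-06). In the list of 10 named proteases of the Toll and dorsal cascades 3 were tested and 2 rose, where 14.4% of all tested genes rose. Besides modSP this was ea, which encodes the Spätzle-cutting protease of the embryo. The transcript of ea rose 2.31-fold at a low level, with means of 0.654 ± 0.182 CPM on CD and 1.501 ± 0.520 CPM on HSD (SD, edgeR adjusted p = 0.0138), and the diets overlapped. With the replicate block and with the stricter low-count filter 1 gene of the list was called higher. The call lost was that of ea, since the adjusted p of modSP reached only 0.0005 over the alternative fits. SPE, the Spätzle-processing enzyme that Grass and Persephone feed, stood at 0.3504 CPM on CD and 0.548 CPM on HSD and did not pass (edgeR adjusted p = 0.216).

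Among 23 other clip-type protease genes 10 were tested. Their calls stand beside 14.4% called higher and 11.6% called lower across the 7844 genes tested. Of the 10, 4 rose, 3 fell and 3 did not pass (median log2 fold change 0.17). The falls were in CG4793, from 115.1 ± 11.8 to 41.9 ± 7.18 CPM (edgeR adjusted p = 1.36e-05), in CG18478, from 30.6 ± 0.962 to 10.9 ± 2.45 CPM (1.05e-05), and in CG18477, from 45.7 ± 4.59 to 22.8 ± 4.96 CPM (0.00095). CG18477 and CG18478 lie close together on chromosome 2L, at 15661041 to 15662753 and 15670174 to 15671223, and CG4793 at 15923395 to 15926287; whether they share reads was not tested. The most abundant genes of the list rose, CG9372 by 1.42-fold (edgeR adjusted p = 2.13e-05) and CG3505 by 1.38-fold (edgeR adjusted p = 4.99e-05), and 21.6% of the exon length of CG9372 lies opposite exons of Lon.

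**Figure D3:**
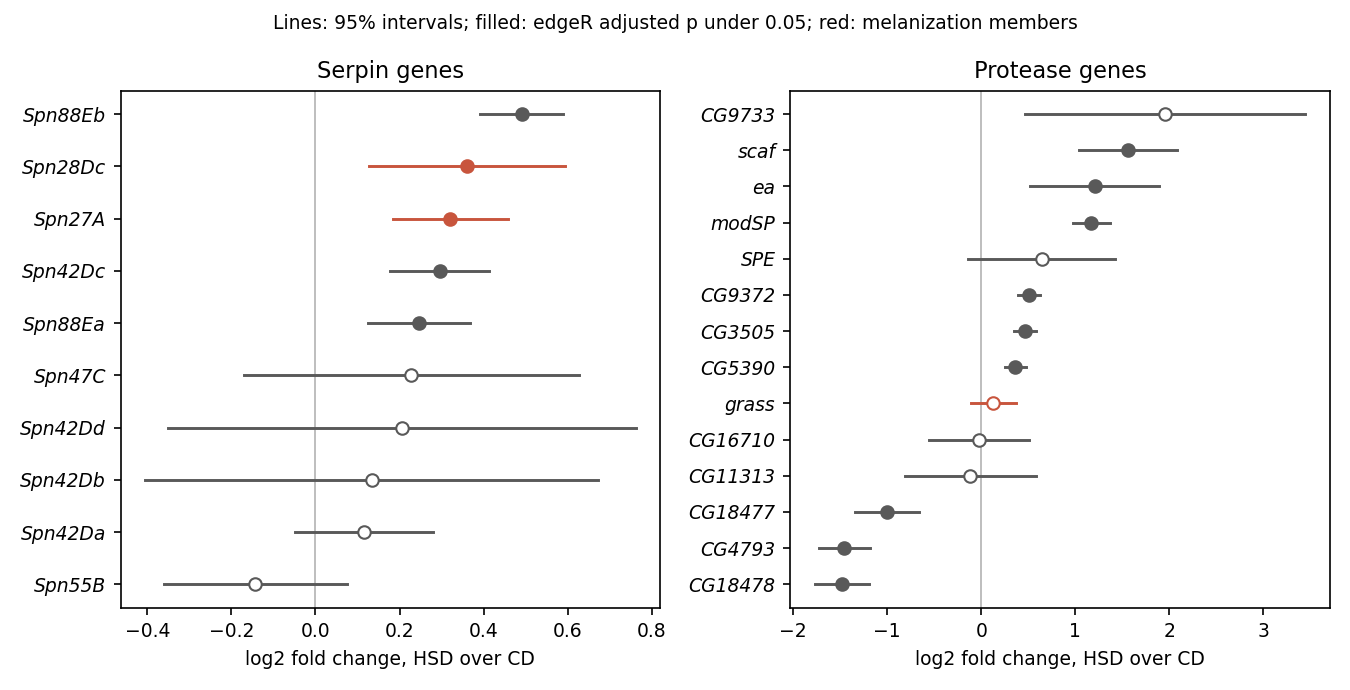
Log2 fold change of HSD over CD with 95% intervals for the tested serpin genes (left) and protease genes (right), filled where the edgeR adjusted p is under 0.05, melanization members in red. Spn27A (0.32) and Spn28Dc (0.36) lie among the other serpins, while the interval of grass spans 0 and other proteases lie on both sides.

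The genes above and below these proteases and serpins were also counted, where 14.4% of all tested genes rose and 11.6% fell. Of 7 tested recognition genes 3 rose and none fell (median log2 fold change 0.39). Among them were GNBP1, a sensor of bacterial cell walls that acts above ModSP and Grass, by 1.31-fold (edgeR adjusted p = 0.000404), and GNBP2 by 1.68-fold (edgeR adjusted p = 0.0161). The call of GNBP2 was not kept in every alternative fit, where its adjusted p reached 0.117. PGRP-LC and PGRP-LF did not pass (edgeR adjusted p = 0.067 and 0.0844, with 0.00967 to 0.676 and 0.00247 to 0.19 over the alternative fits), and 44.4% of the PGRP-LF exon length lies opposite exons of UGP. The number of recognition genes called higher was 5 without CD replicate 1 and with limma-voom, and 1 with the stricter low-count filter. In the list from the Toll ligand to its intracellular pathway 4 of 14 rose and 4 fell (median −0.10), and the number that fell was 2 when CD replicate 3, CD replicate 5, HSD replicate 2 or HSD replicate 3 was left out. The ligand gene spz had a mean of 600.3 ± 23.0 CPM on CD and 882 ± 67.9 CPM on HSD, a 1.47-fold rise (edgeR adjusted p = 2.65e-05), and the inhibitor gene cact 1.29-fold (edgeR adjusted p = 0.000221). The transcription factor gene dl fell by 0.61 and the adaptor gene tub by 0.41 on the log2 scale (edgeR adjusted p = 5.85e-06 and 3.80e-05). Under scaling by library size alone 2 genes of this list rose and 9 fell.

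Of 8 tested prophenoloxidase and melanin synthesis genes 7 rose and none fell (median log2 fold change 0.63), where 14.4% of all tested genes rose. With the replicate block 2 of them rose. Over the alternative fits the adjusted p reached 0.0697 for PPO1 and 0.0913 for yellow-f, so these calls were not kept in every fit. PPO1, a prophenoloxidase of crystal cells, rose 1.49-fold (edgeR adjusted p = 0.00896), PPO3, a prophenoloxidase of lamellocytes, 1.70-fold (0.000744), the dopachrome-converting enzyme gene yellow-f 1.22-fold (0.0014), and t, the gene tan, whose enzyme frees dopamine from its beta-alanine conjugate, 5.28-fold, from 1.83 to 9.77 CPM (1.44e-07). Of 6 tested antimicrobial effector genes 2 rose and none fell (median 0.91). These were CecA2 and CecA1 (edgeR adjusted p = 0.0304 and 0.0494), whose reads may be shared between near-identical neighbours, and the count was 0 when CD replicate 3, CD replicate 4, HSD replicate 1 or HSD replicate 4 was left out, 1 without HSD replicate 3 and 4 without CD replicate 5. CecC did not pass (edgeR adjusted p = 0.0529), nor did Drs, a classical Toll target, at 10.7 ± 7.86 CPM on CD and 16.1 ± 4.56 CPM on HSD (0.479).

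The summed markers of several cell types moved with diet beside the serpins. The counts of markers called stand beside 14.4% of all tested genes called higher and 11.6% called lower. The plasmatocyte markers summed to 110009 to 124070 CPM in HSD libraries, above every CD library, with 9 of 13 higher. The 11 crystal cell markers summed to 24986 to 29919 CPM on CD and 32451 to 49809 CPM on HSD, with 10 higher. Of that sum, 89.8% to 90.8% on CD and 88.9% to 89.5% on HSD came from PPO1 and PPO2, so it largely repeats the prophenoloxidase values above. The other 9 crystal cell markers summed to 2296 to 3049 CPM on CD and 3415 to 5511 CPM on HSD, with 8 higher. The sums of the muscle, lymph gland and epidermal and tracheal marker lists lay higher in all HSD libraries, at 94.3 to 118, 1254 to 1359 and 101 to 117 CPM against 33.1 to 57.0, 791 to 853 and 78.2 to 86.5 CPM. In these lists 1 of 10, 2 of 4 and 1 of 3 tested markers were called higher and none lower. The summed lamellocyte markers overlapped, at 1632 to 2058 CPM on CD and 1927 to 2165 CPM on HSD, while 7 of the 10 tested were higher and 1 lower. The gut markers overlapped as well, at 1.62 to 2.79 and 1.99 to 9.91 CPM, and none of the 3 tested passed. The fat body markers, all 11 of them detected, summed to 93.2, 116, 55.0 and 51.1 CPM in CD replicates 1, 3, 4 and 5 and to 58.5 to 64.9 CPM on HSD, and none of the 7 tested passed. The part of these cell types in the serpin result was not tested.

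Across the 8 libraries the log2 CPM of Spn27A was most like that of Rab18, which encodes a small GTPase of membrane traffic (Pearson r = 0.987), and RpS14a, a ribosomal protein gene with a near-identical neighbouring copy (r = 0.987), out of 6846 genes that averaged 2 CPM or more. Spn28Dc was most like CG34376 (r = 0.957) and Lnk, an adaptor of insulin signalling (r = 0.946), and grass was most like sun, which encodes the epsilon subunit of the mitochondrial ATP synthase, and RhoL (r = 0.962 for both). These coefficients describe 8 libraries that differ in diet and share each library's scaling. After the diet means were removed, r was 0.820 between Spn27A and grass and 0.0390 between Spn27A and Spn28Dc. Without CD replicate 1, the highest CD library for both Spn27A and grass, these became 0.198 and 0.642 over 7 libraries, so both values rest on that library. Of 11 tested genes that neighbour or overlap a member, 2 were higher and none lower: Men-b beside grass (log2 fold change 0.54, edgeR adjusted p = 9.96e-05) and cpx beside MP1 (log2 fold change 1.499, edgeR adjusted p = 6.96e-08). Of all tested genes 14.4% were higher and 11.6% lower, so this count is not read as a result about the members. The nearest genes to Spn27A and Spn28Dc did not pass, with log2 fold changes of −0.08 for Galt, 0.18 for cort, 0.11 for Wwox and −0.06 for CG12560.

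**Figure D4:**
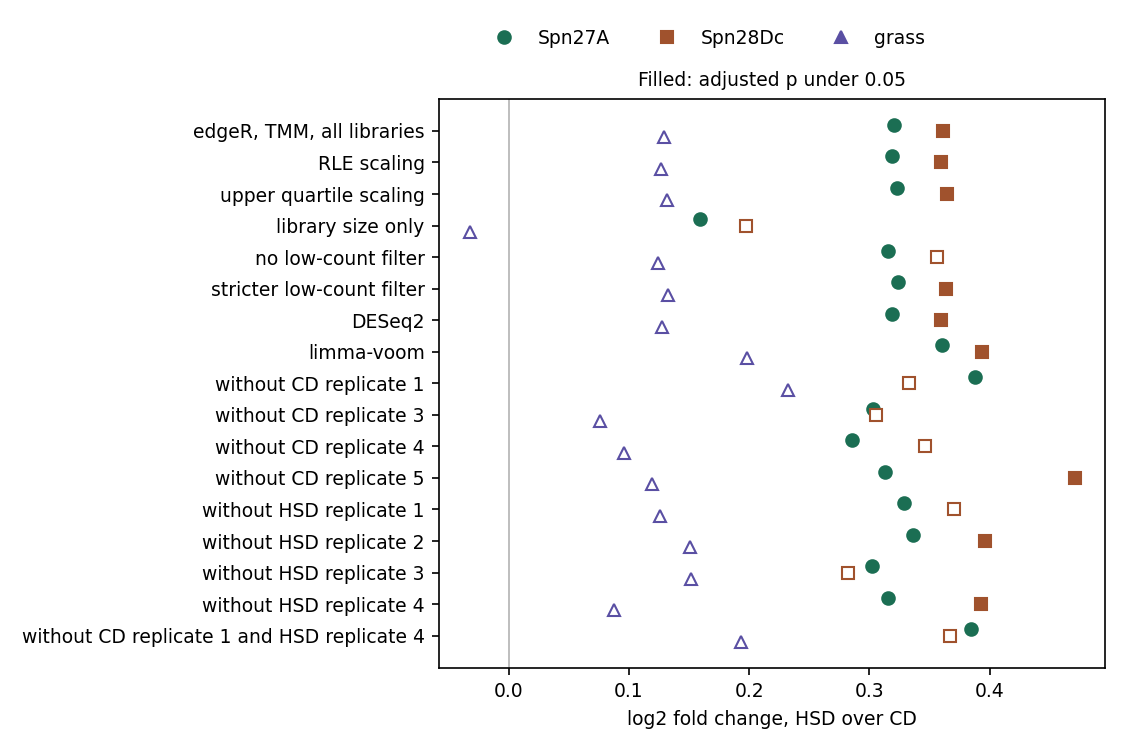
Log2 fold change of Spn27A (circles), Spn28Dc (squares) and grass (triangles) under each alternative scaling, filter, tool and left-out library, filled where the adjusted p is under 0.05. Spn27A is filled in every fit shown, Spn28Dc loses its call in several, and grass passes in none and crosses 0 under scaling by library size alone. The replicate block and the test against a 1.5-fold change are not shown, and Spn27A passed in neither.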

How the data were processed

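The authors deposited raw whole-number read counts per gene for 8 poly(A) RNA libraries. Per the submitters' processing notes, Trim Galore 0.6.7, STAR 2.7.10a and featureCounts were used with the dm6 assembly. How strand and multiple mapping were handled is not given in the sources used here, and the kit is not described as strand-specific, so reads of overlapping genes on opposite strands cannot be told apart. All columns matched a sample. The smallest total of any gene listed was 2 counts. Symbols came from the gene name table (11698 of 11769 identifiers), and coordinates and exon lengths from Ensembl 115 on the dm6 assembly.

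Genes were kept by filterByExpr (minimum count 10), which left 7844 genes with 99.957% of counts. Counts were scaled by TMM and tested with edgeR 4.0.16 in R 4.3.3 (robust quasi-likelihood, diet as the only term, Benjamini-Hochberg over all tested genes, threshold 0.05). Intervals of fold changes are at 95%, and each standard error is the size of the log2 change over the root of F. CPM values use TMM-scaled library sizes, and RPKM values divide them by the length of the exon union. Counts of scarce members summed over a diet, with their intervals, floors and ratio, use library totals without TMM scaling. Library totals of 20817891 to 24733521 counts put the floor of 3 counts over a diet near 0.0337 CPM. Counting intervals and floors cover counting error only, since PCR copies carry no molecular identifiers. On simulated counts for the same 7844 genes, 50 genes were changed at each of 1.25-fold, 1.5-fold, 2-fold and 4-fold. The test of HSD against CD recovered 28, 44, 48 and 49 of them in that order, with 13 false among 182 calls. The changed genes were drawn only from those with an expected count above 50 in a library of average size. Recovery was not split by count level, and these rates do not cover scarce genes such as ea and SPE. The simulation also gave far fewer calls than the real libraries, where 2040 genes passed.

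The members, gene lists and tests were chosen with earlier results of these data known. Named beside the members were, in each list, the 4 genes with the smallest p that averaged 2 CPM or more and any at 20 CPM or more with a log2 change of at least 1 that passed, the 2 genes most like each tested member, and chromosomal neighbours. The genes ea, SPE and Lon, and the neighbours' overlaps, were named after their values were seen. Of the symbols in the 7 pathway lists, 6 matched no identifier. Alternatives were scaling by RLE, by upper quartile and by library size alone, no filter, a stricter filter (5 CPM in 4 libraries), quality-weighted voom in limma 3.58.1, DESeq2 1.42.0, a replicate block, each library left out, CD replicate 1 and HSD replicate 4 left out together, a test against a 1.5-fold change and a threshold of 0.1. Correlations and serpin shares without CD replicate 1, the Sp7 ratio without CD replicate 4, and the crystal cell markers without PPO1 and PPO2, were added after seeing the data.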

Additional observations from a re-analysis of the deposited data

Results flagged for a closer look

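In 82 groups of 4 libraries, 4 held a library far from the others, and chance alone flags about 1 group in 20. None of the 4 concerned a melanization member. HSD replicate 1 was the lowest of its diet for Spn88Eb, at 126 CPM against 137.0 to 137.5 CPM in the other HSD libraries. The same library was the lowest for CG18478, at 7.30 CPM against 11.7 to 12.5 CPM. CD replicate 5 was the lowest of its diet for PPO1, at 8499 CPM against 9910 to 9970 CPM, and for the summed crystal cell markers, at 24986 CPM against 29257 to 29919 CPM. Spn28Dc was highest among the CD libraries in that same replicate, at 103 CPM.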

How the results depend on the processing

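The rise of Spn27A kept its direction in every alternative, with log2 fold changes from 0.16 to 0.39, and leaving out single libraries gave 0.29 to 0.39. The rise of Spn28Dc ran from 0.20 to 0.50, and grass from −0.033 under scaling by library size alone, the sole reversal, to 0.23. Of the members, 2 were called higher and none lower. The number called higher was 1 under scaling by library size alone, without a low-count filter, with the replicate block and without CD replicate 1 and HSD replicate 4 together, ran from 1 to 2 when single libraries were left out, and was 0 in the test against a 1.5-fold change. The member lost was Spn28Dc in each of these except the replicate block, where Spn27A was lost (log2 fold change 0.33, adjusted p = 0.0878), and the 1.5-fold test, where both were.

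Across all genes, 1128 higher and 912 lower calls became 690 and 3161 under scaling by library size alone, which moved the median log2 fold change from −0.01 to −0.17, and 589 and 253 with the replicate block. The share of higher calls was thus 55.3% on the TMM scale and 17.9% on library size. limma-voom called 1430 lower. Without single libraries the calls ran from 929 to 1408 higher and from 660 to 1223 lower. In the 7 pathway lists together, 25 higher and 7 lower calls became 20 higher and 13 lower under scaling by library size alone. Replicate numbers shared by the diets did not pair the libraries: deviations of same-numbered libraries from their diet means correlated at −0.13, −0.07 and −0.18. In the block fit CD replicate 5 and HSD replicate 2 had no partner of the same number, so the diet contrast rested on the other libraries. The block results are therefore given with their values, and calls lost there are not read as a weaker effect. The cause of these changes was not tested. Sp7, psh, Spn77Ba and nec had at most 23 counts summed over a diet, which leaves wide counting intervals.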
